A study of Mus musculus with 91 samples.

Results

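The first response of splenic regulatory T cells (Tregs) to a fusion of mouse IL-2 with its receptor chain CD25 (mIL-2/CD25, FP) was read 1.5 h after injection, in 4 FP libraries set against 4 PBS libraries of the same count table. These 8 are the samples titled 1.5h-FP and 1.5h-PBS, out of 91 samples in the series. The animals were C57/BL6 mice with an RFP-FoxP3 reporter, and Tregs were sorted from spleen. By the labels' treatment text, which is worded alike for every sample, a mouse received 20 µg of FP or 100 µL of PBS. The table's other 4 libraries, from mice given mIL-2 at a dose the labels do not state, entered the fit and are used below for side by side values. A separate restimulation table holds 3 libraries after PBS and a second PBS and 3 after PBS and a single mIL-2/CD25 injection, also taken at 1.5 h. The labels do not say that replicates came from separate animals, so the p-values below measure the spread between these libraries, which may be technical, and they give no age or sex of the mice.

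IL-2 binds a receptor of 3 chains, CD25 (Il2ra), CD122 (Il2rb) and the common gamma chain (Il2rg). The kinases JAK1 and JAK3 sit on CD122 and the gamma chain, and the transcription factors STAT5A and STAT5B carry the signal to the nucleus. Tregs make little IL-2 themselves and carry much CD25, and their number and Foxp3 level depend on IL-2 from other T cells. The same receptor also feeds the PI3K and MAP kinase pathways, which drive cell growth and restrain FOXO-dependent genes of the resting state. Fusing IL-2 to CD25 is a way of making an IL-2 that lasts longer in the animal.

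The labelled cell type showed in the defining genes. Foxp3 stood at 451 to 526 CPM (gene counts scaled to a common library size with TMM factors) in the PBS libraries, Il2ra at 545 to 630.2 CPM and Cd4, the helper lineage coreceptor, at 406 to 479 CPM. Library totals were 12212262 to 15325053 reads. FP library 2 carries another date and plate tag in its sample id than the other 11 libraries of the table. Markers of other spleen cells were present too, some at levels like those of the Treg genes. The summed level of 13 myeloid markers was 486 to 1849 CPM in PBS and 895 to 1568 CPM in FP libraries, that of 7 CD8 T and NK cell markers 27.7 to 35.9 and 25.7 to 33.1 CPM, and that of 8 erythroid and platelet markers 15.4 to 50.9 and 22.8 to 55.3 CPM. All 13 myeloid markers had a positive log2 change (0.094 to 1.01, list median 0.24), and none was called. Of the CD8 T and NK cell markers 2 of 7 were positive, and of the erythroid and platelet markers 5 of 8. Itgam, S100a8, S100a9, Ncr1, Pf4 and Il2 were not among the genes tested. The summed level of 12 B cell markers was 392 to 551 CPM in PBS and 272 to 346 CPM in FP libraries, without overlap. Of the 12, 1 was called and 6 had a positive log2 change, with a list median of -0.0037 and values up to 0.90. The called one, and most of the sum, is Ighm, the immunoglobulin heavy chain gene, at 356, 345, 336 and 470.4 CPM after PBS and 195, 216, 274 and 284 CPM after FP (log2 change -0.64 ± 0.13 (SE), adjusted p 0.0047). Its call was lost without FP library 1 or 2 or PBS library 1 or 2 (log2 change -0.72 to -0.51 over the 8 fits that each left out 1 library). Cd79b, a B cell receptor gene, was at 7.69, 8.04, 9.56 and 13.5 CPM in PBS and 8.73, 9.87, 11.3 and 9.06 CPM in FP libraries, and these ranges overlap. In bulk samples fewer cells of a type and less RNA per cell cannot be told apart. The part of these markers in the results below was not tested.

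FP was followed by a change in 1110 of 16643 genes tested, a share of 6.67%, within 1.5 h. By edgeR's quasi-likelihood test with Benjamini-Hochberg adjustment over all genes tested and a threshold of 0.01, 730 genes were higher after FP (4.39%) and 380 lower (2.28%). Both shares are the background for the gene list counts and percentages below. In 1103 of the 1110 the 4 FP and 4 PBS libraries did not overlap, as in 2011 of the 15533 genes not called (12.9%) and 18.7% of all genes tested. Changes were moderate in size: the called genes had a median log2 change of 0.72 upward and -0.70 downward, and the median over all genes tested was -0.0079. A change of at least 2-fold was found in 265 called genes (179 higher, 86 lower), and at least 4-fold in 26 higher and 4 lower. The count depends on which library is left out: it was 689 to 815 without FP library 1, 2 or 3 or PBS library 1, 2 or 3 (699, 689 and 737 without FP library 1, FP library 3 and PBS library 1), 1095 without FP library 4 and 1099 without PBS library 4. In all, 601 genes were called in all 8 fits that each left out 1 library. DESeq2 called 1688, of which 1086 were among the 1110. Leaving out FP library 2, with the other date tag, gave 751 called genes. Scaling by library totals in place of TMM ended the calls of Ifnar1, Irf4, Igfbp4, Cdk4 and Kat2a among the genes named below, and scaling by RLE that of Ltb.

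**Figure D1:**
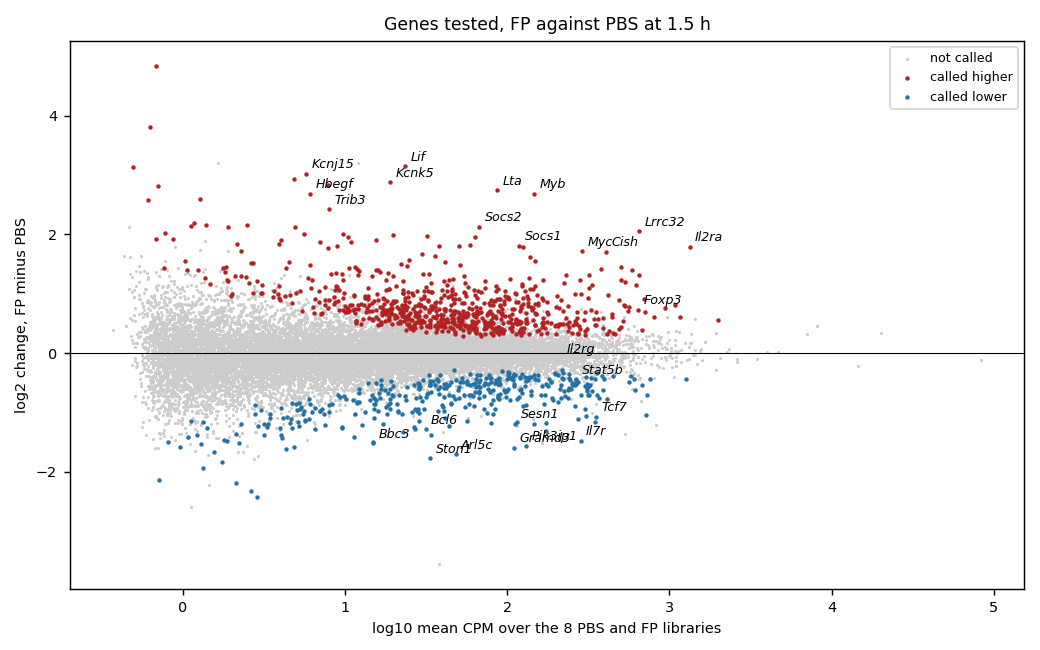
Each point is 1 gene tested at 1.5 h, by the log10 of its mean CPM over the 8 PBS and FP libraries (horizontal) and its log2 change, FP minus PBS (vertical). Red points are the 730 genes called higher and blue points the 380 called lower, grey points were not called. Lif, Lta and Myb lie above 2.5, and Ston1 and Arl5c below -1.5.

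Among called genes averaging at least 5 CPM, Lif, Kcnj15 and Kcnk5 had the largest increases in log2 terms. Lif, which encodes leukemia inhibitory factor (ENSMUSG00000034394, GRCm38 chromosome 11, 4257557 to 4272514), was at 4.09, 5.64, 4.93 and 4.4 CPM in the 4 PBS libraries and at 62.8, 37.5, 41.6 and 27.3 CPM in the 4 FP libraries, a log2 change of 3.15 ± 0.23 (± SE, as for every log2 change below; adjusted p 1.47e-06). Every FP library stood well above every PBS library, with FP library 4 lowest and FP library 1 highest. Kcnk5, a potassium channel of the tandem-pore family (ENSMUSG00000023243, GRCm38 chromosome 14, 20140057 to 20181809), went from 4.29, 5.33, 4.39 and 4.09 CPM to 34.5, 31.8, 34.3 and 33.1 CPM, a log2 change of 2.88 ± 0.11 (adjusted p 4.32e-09). Here the 4 FP libraries were nearly level. The inward rectifier Kcnj15 rose by 3.02 ± 0.20, from 1.26 ± 0.393 to 10.2 ± 1.29 CPM (SD, n = 4). Kcnn4, the calcium-activated potassium channel of T cells, fell by 0.85 ± 0.10, from values of 202 to 227 CPM to values of 105 to 149 CPM. Of 21 ion channel genes tested, 2 rose (Kcnk5 and Kcnj15) and 2 fell (Kcnn4 and Stim1, the calcium sensor of the endoplasmic reticulum, -0.35), with a list median of 0.10. These shares are 9.52% each way, beside 4.39% of all genes called higher and 2.28% called lower, and DESeq2 called 4 higher and 3 lower. The Stim1 call was lost without any one of FP libraries 1, 2 and 3 and PBS libraries 2 and 3 (log2 change -0.41 to -0.32, adjusted p up to 0.0212).

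Among the receptor and signalling genes, 2 of the 3 chains of the IL-2 receptor rose. Il2ra (ENSMUSG00000026770, GRCm38 chromosome 2, 11642807 to 11693193) was at 630.2, 586, 627 and 545 CPM after PBS and at 2134, 2144, 2140.0 and 1839 CPM after FP, with no overlap and with FP library 4 below the other 3. The log2 change was 1.79 ± 0.088 (adjusted p 3.16e-08), or 3.46-fold. Il2rb (ENSMUSG00000068227, GRCm38 chromosome 15, 78479256 to 78495271) rose from 838, 787, 717 and 796 to 1280.1, 1485, 1435 and 1317 CPM, by 0.81 ± 0.092 (adjusted p 4.65e-05). Per kb of merged exons the mean levels of Il2ra and Il2rb were 104 and 183 CPM after PBS and 362 and 322 CPM after FP, Il2ra being the lower of the pair after PBS and the higher after FP. Il2rg, at 196 to 252 CPM after PBS and 188 to 220.5 after FP, was not called (-0.085 ± 0.082, adjusted p 0.565). Neither were Jak1 (-0.25 ± 0.081, adjusted p 0.0603), Jak3 (-0.006 ± 0.12, adjusted p 0.982) and Stat5a (-0.18 ± 0.093, adjusted p 0.253). Stat5b fell, from 283, 273, 282 and 384 CPM to 221, 217, 227 and 237 CPM (-0.44 ± 0.10, adjusted p 0.00866), with PBS library 4 far above the other 3. That call was lost without any FP library and without PBS library 1, 2 or 3 (log2 change -0.49 to -0.31, adjusted p up to 0.0292). In all, 2 of the 14 genes of this list rose (14.3%) and 1 fell (7.14%), with a list median of -0.078.

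Feedback inhibitors of JAK-STAT signalling differed within their list. Cish (ENSMUSG00000032578, GRCm38 chromosome 9, 107296026 to 107302784), which binds activated cytokine receptors, was at 163, 199, 160.2 and 237 CPM in PBS and 656, 625, 612 and 591 CPM in FP libraries (1.71 ± 0.12, adjusted p 6.4e-07). Socs1 (ENSMUSG00000038037, GRCm38 chromosome 16, 10782240 to 10785536), which blocks JAK kinases, went from 58.3, 49.7, 49.6 and 52.3 to 203, 176, 193 and 164 CPM (1.81 ± 0.084, adjusted p 2.1e-08). Socs2 (ENSMUSG00000020027, GRCm38 chromosome 10, 95385362 to 95417180), of the same family, went from 25.9, 25.2, 27.7 and 21.2 to 117, 106, 112 and 104 CPM (2.13 ± 0.12, adjusted p 1.05e-07). In all 3 genes every FP library exceeded every PBS library by over 2-fold. Socs3, the inhibitor best known downstream of STAT3, was at 106 to 224 CPM and 223 to 257 CPM and was not called (0.38 ± 0.19, adjusted p 0.21), and the phosphatase gene Ptpn1 was not called either (0.18 ± 0.11, adjusted p 0.343). Cish, Socs1 and Socs2 were the called members among 17 tested (17.6%), with no member lower and a list median of 0.15.

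**Figure D2:**
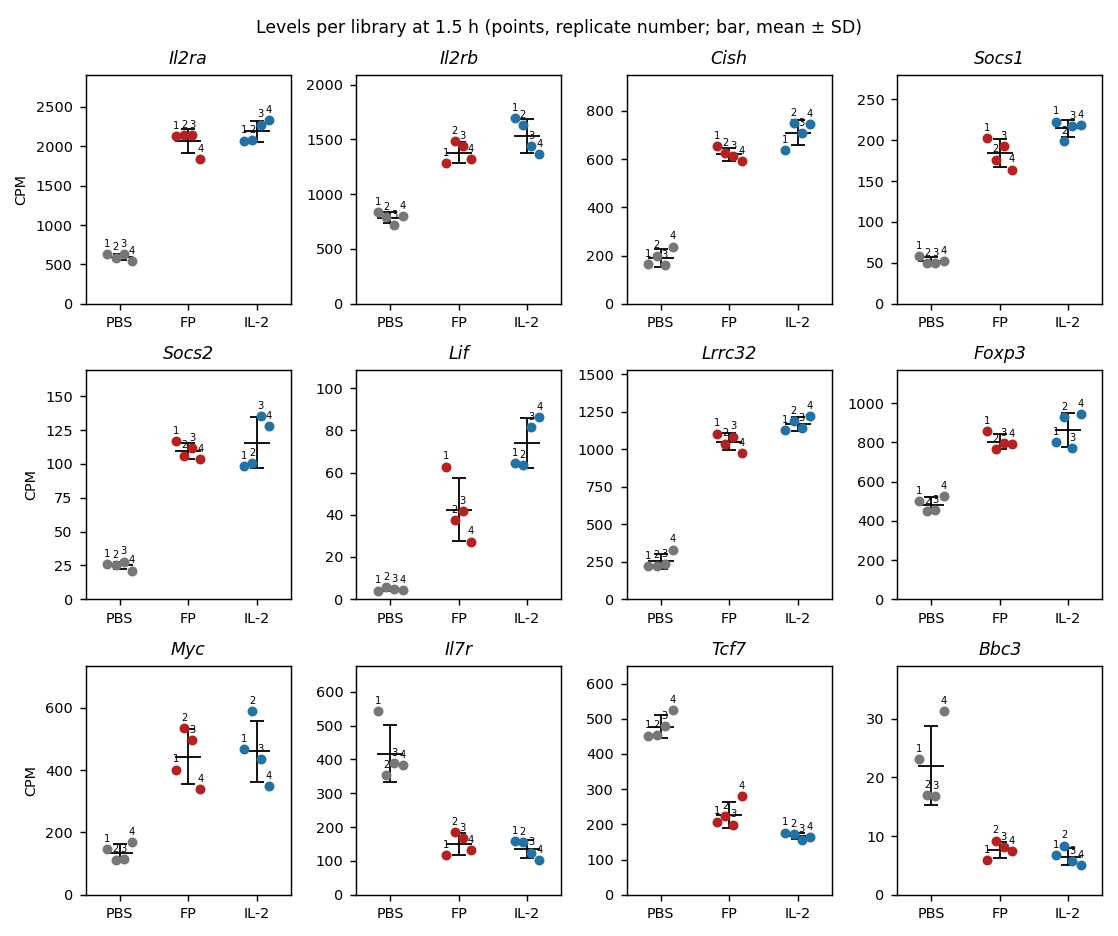
TMM-scaled CPM of 12 genes at 1.5 h (vertical, linear from 0) in the 4 PBS (grey), 4 FP (red) and 4 IL-2 (blue) libraries, each point labelled with its replicate number and the bars giving mean ± SD. In each gene shown the FP libraries lie on 1 side of the PBS libraries, higher from Il2ra to Myc and lower for Il7r, Tcf7 and Bbc3.

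Secreted factors had some of the widest changes, and 7 of 22 tested rose (31.8%) while none fell (list median 0.32). Lta, lymphotoxin alpha (ENSMUSG00000024402, GRCm38 chromosome 17, 35203165 to 35205351), was at 21.5, 25.6, 23.4 and 19.0 CPM after PBS and 171, 149.9, 131 and 149 CPM after FP (2.75 ± 0.12, adjusted p 1.34e-08). Its neighbours on chromosome 17 rose with it: Tnf from 22.6, 28.6, 32.7 and 19.8 to 105, 71.0, 79.0 and 109.6 CPM (1.82 ± 0.24, adjusted p 0.000178) and Ltb, lymphotoxin beta, from 197, 267, 255 and 279 to 326, 434, 469.6 and 413 CPM (0.72 ± 0.16, adjusted p 0.00916). Whether counting used the strand is not stated, so it is not known whether reads of the opposite strand entered these counts. Hbegf, an EGF receptor ligand, rose from values of 1.46 to 1.87 CPM after PBS to values of 8.56 to 13.1 CPM after FP (2.68 ± 0.19), and Osm, oncostatin M, from values of 19.3 to 26.5 CPM after PBS to values of 70.8 to 92.3 CPM after FP (1.80 ± 0.13). Tnfsf11, which encodes RANKL, went from 17.9, 28.8, 24.7 and 12.1 to 41.3, 38.0, 44.5 and 39.4 CPM (0.97 ± 0.21, adjusted p 0.00731). The Ltb call was lost without any one of FP libraries 2, 3 and 4 and the 4 PBS libraries (log2 change 0.62 to 0.82, adjusted p up to 0.0348). The Tnfsf11 call was lost without any FP library or without PBS library 1 or 3 (0.78 to 1.16, up to 0.0291). The suppressive cytokine genes were not called: Tgfb1 was at 127 to 162 CPM and 183 to 214 CPM (0.39 ± 0.11, adjusted p 0.0301), and Il10 at 6.79, 14.5, 6.17 and 14.3 CPM after PBS and 5.11, 6.61, 6.19 and 3.88 CPM after FP (-0.94 ± 0.35, adjusted p 0.0926).

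RefSeq promoter windows (GRCm38.p6, 250 bases before to 50 after a start) were searched for the STAT motif TTCNNNGAA, which reads the same on both strands. Each motif was counted by itself, whether or not it overlapped another. Of the receptor, feedback and secreted factor genes called, Lta and Ltb held it before the start, and those stretches are shown because both genes rose and lie in 1 cluster, with Tnf between them. Lta lies on the minus strand (chr17:35205352-35205523) and Ltb on the plus strand (chr17:35194315-35194363). Both are printed 5′ to 3′ on the gene's strand, with the motif in capitals and up to 20 bases on either side.
Lta: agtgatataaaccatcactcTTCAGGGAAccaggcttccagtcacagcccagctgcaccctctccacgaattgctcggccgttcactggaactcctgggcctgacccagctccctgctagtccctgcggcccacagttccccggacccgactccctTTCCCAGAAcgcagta
Ltb: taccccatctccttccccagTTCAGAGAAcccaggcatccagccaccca
The first stretch holds 2 matches, starting 152 and 16 bases before the Lta start, and the second holds 1, starting 172 bases before the Ltb start. The whole windows of Il2ra, Socs1, Lif, Tnf, Tnfsf11 and Stat5b held no match in these letters, and that of Cish held 2, both from the start onward. Il2rb, Socs2, Hbegf and Osm were not matched. Among promoters of called genes, 11.3% of 673 of genes called higher and 8.67% of 369 of genes called lower held the motif, and 7.05% of the 13270 promoters of genes tested did. Promoters were found for 807 of the 1110 called genes (72.7%), under the 80% that such a check needs, so these shares are void as a comparison of called genes and describe the matched promoters. Over all 32851 promoters of the table the share was 8.3%. Binding was not measured here.

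Of 21 Pim kinase and BCL2 family genes tested, 4 rose (19%) and 2 fell (9.52%), with a list median of 0.22. Bcl2, the founding death inhibitor, rose from 556, 435, 494 and 439.7 to 968, 1010.2, 905 and 742 CPM (0.91 ± 0.12, adjusted p 0.000134), and Bcl2l1, which encodes BCL-XL, from 34.6, 34.3, 35.5 and 39.8 to 77.7, 72.4, 81.8 and 79.3 CPM (1.11 ± 0.077, adjusted p 8.04e-07). Pim1, a serine kinase gene and a textbook STAT5 target, rose by 0.92 ± 0.12 to values of 363 to 457 CPM. The genes that fell belong to the death-promoting BH3-only class. Bbc3, which encodes PUMA (ENSMUSG00000002083, GRCm38 chromosome 7, 16308393 to 16318205), went from 23.1, 16.9, 16.9 and 31.2 to 5.96, 9.22, 8.17 and 7.41 CPM (-1.52 ± 0.22, adjusted p 0.000358). Bcl2l11, which encodes BIM, went from 195, 136, 131 and 175 to 63.5, 96.8, 71.0 and 55.6 CPM (-1.15 ± 0.21, adjusted p 0.00247). Bid, another BH3-only gene, went the other way (0.43 ± 0.084, adjusted p 0.00379), and Mcl1 was not called (0.29 ± 0.13, adjusted p 0.162). The Bcl2l11 call was lost without FP library 1 or PBS library 1 (-1.33 to -1.04, adjusted p up to 0.0114), and that of Bid without FP library 1 or 3 or PBS library 1, 2 or 3 (0.38 to 0.47, up to 0.0178).

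Of 22 Treg identity genes tested, 6 rose (27.3%) and 1 fell (4.55%), with a list median of 0.16. Il2ra and Socs2, already counted in the receptor and feedback lists above, are among the 6. Lrrc32, which encodes GARP, the surface anchor of latent TGF-beta (ENSMUSG00000090958, GRCm38 chromosome 7, 98489283 to 98502181), was at 221, 225, 234 and 330.5 CPM after PBS and 1105, 1038, 1085 and 976 CPM after FP (4.16-fold, adjusted p 1.94e-07). Foxp3 itself (ENSMUSG00000039521, GRCm38 chromosome X, 7573644 to 7595245) went from 502, 451, 454 and 526 to 858, 767, 796 and 791 CPM, a 1.66-fold rise (0.73 ± 0.088, adjusted p 8.22e-05) with no overlap. Gpr83, an orphan receptor gene typical of Tregs, rose from values of 172 to 278 CPM after PBS to values of 367 to 489.7 CPM after FP (1.09 ± 0.14). Ikzf2, which encodes Helios, was at 854 to 1134 CPM and 1022 to 1234 CPM and was not called (0.23 ± 0.11, adjusted p 0.199), and its relative Ikzf3, Aiolos, fell (-0.43 ± 0.074, adjusted p 0.00147). The inhibitory receptor gene Ctla4 was at 86.8, 91.6, 66.2 and 149 CPM after PBS and 57.2, 77.1, 81.6 and 56.1 CPM after FP (-0.53 ± 0.23, adjusted p 0.157), overlapping and not called.

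Of 35 effector Treg genes 3 rose and none fell, with a median of 0.029. The 8.57% called higher compares with 4.39% of all genes tested, and DESeq2 called 4 higher and 2 lower. Myb, a transcription factor of activated Tregs (ENSMUSG00000019982, GRCm38 chromosome 10, 21124935 to 21160984), had the largest change of the 3: 37.7, 38.8, 32.8 and 47.5 CPM after PBS and 288, 278, 279.8 and 165 CPM after FP (2.69 ± 0.17, adjusted p 3.54e-07). FP library 4 was well below the other 3 FP libraries and well above PBS. Ahr (0.74 ± 0.15, adjusted p 0.00466) and Irf4 (0.52 ± 0.12, adjusted p 0.00901) were the other 2 called. The Ahr call was lost without FP library 1 or 3 or PBS library 1 or 2 (0.64 to 0.89, adjusted p up to 0.0202), and the Irf4 call without FP library 1, 2 or 3 or PBS library 1 or 3 (0.41 to 0.60, up to 0.0341). Gzmb, the granzyme B gene, was at 4.43, 2.71, 3.39 and 5.92 CPM in PBS and 7.09, 5.15, 6.95 and 5.18 CPM in FP libraries (0.56 ± 0.27, adjusted p 0.199), and Prdm1, which encodes BLIMP-1, at 30.1 to 65.0 and 35.2 to 38.2 CPM (-0.18 ± 0.19, adjusted p 0.595). Neither was called.

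Of 26 resting and egress genes tested, 6 fell (23.1%) and 2 rose (7.69%), with a median of -0.19. Il7r, the IL-7 receptor chain (ENSMUSG00000003882, GRCm38 chromosome 15, 9505788 to 9530176), was at 542, 354, 389 and 383 CPM after PBS and 117, 185, 168 and 131 CPM after FP (-1.47 ± 0.18, adjusted p 8.64e-05). The groups were far apart, with PBS library 1 the highest. Tcf7, which encodes the transcription factor TCF-1, went from 452, 454, 479.8 and 524 to 208, 223, 199 and 281 CPM (-1.07 ± 0.10, adjusted p 1.12e-05), and here FP library 4 was nearest to PBS. Klf3 fell by 1.11 ± 0.11 to values of 155 to 189 CPM, Bcl6 by 1.28 ± 0.16 to values of 14.6 to 21.6 CPM and Foxo1 by 0.56 ± 0.084 to values of 218 to 261 CPM. S1pr1 (-0.0095 ± 0.089, adjusted p 0.962) and Klf2 (0.10 ± 0.19, 0.791), which guide naive T cells through lymphoid organs, were not called. The risers were Treml2 (by 0.87 ± 0.13) and Igfbp4 (by 0.50 ± 0.11). The Igfbp4 call was lost without any FP library or PBS library 1, 2 or 3 (0.44 to 0.59, adjusted p up to 0.0329).

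Among 28 quiescence and PI3K restraint genes, 7 fell (25%) and none rose, with a median of -0.19. Pik3ip1, an inhibitor of PI3K, went from 234, 127, 139.7 and 283 to 49.7, 74.2, 74.5 and 67.9 CPM (-1.56 ± 0.25, adjusted p 0.000795). Sesn1, which restrains the growth regulator mTORC1, went from 157, 150.3, 152 and 165 to 63.6, 70.8, 69.8 and 69.3 CPM (-1.19 ± 0.074, adjusted p 3.54e-07), with both groups tight. Klf13 (-0.78), the CDK inhibitor gene Cdkn1b (-0.73), Rbl2 (-0.45), Sesn3 (-0.61) and Btg2 (-0.88) were the others called lower. Sesn3 lost its call without FP library 1 or 3 or PBS library 2 or 3 (-0.72 to -0.54, adjusted p up to 0.0125), and Btg2 without FP library 1 or 4 or PBS library 1, 2 or 3 (adjusted p up to 0.0208). Txnip, a glucose-sensing brake on metabolism, was at 946, 534, 554 and 2611 CPM after PBS and 362, 642, 564 and 446 CPM after FP. PBS library 4 alone made that group wide, the groups overlapped and the change was not called (-1.21 ± 0.41, adjusted p 0.0712).

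Signalling genes of the T cell receptor moved both ways, 5 of 32 higher (15.6%) and 7 lower (21.9%), with a median of -0.079. Rcan3, a regulator of calcineurin, rose from values of 68.9 to 83.0 CPM after PBS to values of 165 to 172 CPM after FP (1.14 ± 0.071) and Rasgrp1, which activates Ras, from values of 333 to 427 CPM after PBS to values of 618 to 729 CPM after FP (0.79 ± 0.089). The costimulatory receptor gene Cd28 fell from values of 35.9 to 41.2 CPM after PBS to values of 15.2 to 22.5 CPM after FP (adjusted p 0.000325), and the restraining genes Cd5 and Cblb fell by 0.70 ± 0.10 and 0.70 ± 0.12. In the MAP kinase feedback list 4 of 20 rose (20%) and 1 fell (5%), with a median of 0.22. The Ras pathway inhibitors Spred1 (30.8, 27.0, 28.5 and 21.0 to 75.1, 93.9, 78.8 and 52.4 CPM, 1.48 ± 0.17), Spry1 (1.09 ± 0.16) and Spred2 (0.63 ± 0.076) were higher, and the phosphatase gene Dusp2 was lower (233, 168, 154 and 264 to 81.4, 90.1, 93.9 and 92.5 CPM, -1.19 ± 0.14). Spry4, at about 1 CPM, was the remaining riser (1.92 ± 0.41, adjusted p 0.00646), and its call was lost without FP library 1, 2 or 3 or PBS library 1, 3 or 4 (1.68 to 2.30, up to 0.0264). DESeq2 gave Spry4 a log2 change of 1.95 and no adjusted p. Junb, an immediate early gene, varied widely inside both groups and was at 362, 762, 458 and 193 CPM after PBS and 374, 704, 510.5 and 249 CPM after FP (0.05 ± 0.37, adjusted p 0.953). Of 29 such genes 2 rose, Nfkbiz (1.15 ± 0.19) and Rgs1 (1.32 ± 0.25), and 3 fell, Dusp2, Btg2 and Zfp36l1 (-0.70 ± 0.10), with a median of -0.061. The 6.9% called higher is near the 4.39% of all genes tested, and 10.3% were called lower, beside 2.28%. The Rgs1 call was lost without FP library 2 or 3 or PBS library 1 (1.16 to 1.48, up to 0.0109).

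Of 14 Myc network genes 3 rose and 3 fell (21.4% each way, median 0.043). Myc (ENSMUSG00000022346, GRCm38 chromosome 15, 61985391 to 61990374) was at 146, 113, 114 and 168 CPM in PBS and 402, 536, 496 and 340.1 CPM in FP libraries (1.71 ± 0.18, adjusted p 2.72e-05), and its partner gene Max rose by 0.39 ± 0.085. Mxd4 and Mxi1, whose products compete with MYC for MAX, fell by 0.83 ± 0.12 and 0.55 ± 0.12, and Mlxip, a glucose-responsive relative, by 0.64 ± 0.14. Myb, given above, is the third riser. The calls of Max (lost without FP library 1, 2 or 3 or PBS library 1, 2 or 4, 0.36 to 0.47), Mxi1 (without FP library 1, 3 or 4 or any PBS library, -0.61 to -0.44) and Mlxip (without any FP library or PBS library 1 or 4, -0.72 to -0.51) had adjusted p-values up to 0.0285, 0.0334 and 0.0264 in those fits.

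Of 70 ribosome biogenesis genes 47 rose and none fell, with a median log2 change of 0.65, the most called members of any list. The background of genes called higher was 4.39%. Tsr1, a 40S assembly factor, went from 48.8, 44.8, 44.1 and 47.9 to 102, 110.0, 100.0 and 85.2 CPM (1.10 ± 0.083, adjusted p 1.94e-06). Nop2, an rRNA methyltransferase (ENSMUSG00000038279, GRCm38 chromosome 6, 125131909 to 125144753), went from 43.6, 41.9, 46.2 and 39.5 to 98.0, 88.0, 89.8 and 78.1 CPM (1.05 ± 0.087, adjusted p 3.61e-06). Noc4l, Rrp1b, Ppan and Nolc1 rose by 1.15 ± 0.094, 1.08 ± 0.083, 1.03 ± 0.094 and 0.91 ± 0.08. These log2 changes of 0.91 to 1.15 were tight between libraries, with FP library 4 the lowest of its group in each of the 6. The abundant nucleolar genes Ncl (0.37 ± 0.10, adjusted p 0.0203) and Npm1 (0.38 ± 0.17, adjusted p 0.163) and the rRNA transcription factor gene Ubtf (-0.064 ± 0.073, adjusted p 0.632) were not called. Ncl was called by DESeq2 with all libraries, and by edgeR without FP library 4 (0.44). The 50 cytosolic ribosomal protein genes had no called member, with log2 changes of 0.036 to 0.34 and a median of 0.18: Rpl4 was at 1167, 1256, 1193 and 1420.1 CPM after PBS and 1094, 1634, 1721 and 1242 CPM after FP, overlapping. At an unadjusted p below 0.05, 4449 of all genes tested passed, and DESeq2 called no ribosomal protein gene either. Translation factors stood between, 12 of 45 higher and none lower (median 0.23), led in p by Eif3b (0.52 ± 0.076), Eif2s1 (0.67 ± 0.10) and Eif4a1 (0.69 ± 0.10). Eef1a1, the abundant elongation factor, was not called (0.016 ± 0.12, adjusted p 0.955).

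The E-box CACGTG, the DNA letters MYC and MAX are known to bind and the same on both strands, was counted in the same promoter windows. Of 43 promoters, which belong to 41 of the 47 ribosome biogenesis genes called higher, 20.9% held it, of 73 of ribosome biogenesis genes tested 15.1%, of 673 promoters of all genes called higher 17.1%, of 369 of genes called lower 10.6%, and of 13270 of genes tested 9.6%. The E-box was not the only motif found in this list: the STAT motif was in 16.3% of the same 43 promoters. The STAT motif was in 12.3% of the 73 and 7.05% of the 13270. The stretches of 3 called ribosome biogenesis genes that hold it before the start are shown to make the motif visible: Nop2 (plus strand, chr6:125131803-125131848), Utp18, a subunit of the small subunit processome (minus strand, chr11:93885767-93885806), and Rrn3, an initiation factor of rRNA transcription (plus strand, chr16:13780464-13780676). They are printed 5′ to 3′ on the gene's strand with the E-box in capitals.
Nop2: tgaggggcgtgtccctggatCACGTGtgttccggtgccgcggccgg
Utp18: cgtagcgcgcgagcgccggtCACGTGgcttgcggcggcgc
Rrn3: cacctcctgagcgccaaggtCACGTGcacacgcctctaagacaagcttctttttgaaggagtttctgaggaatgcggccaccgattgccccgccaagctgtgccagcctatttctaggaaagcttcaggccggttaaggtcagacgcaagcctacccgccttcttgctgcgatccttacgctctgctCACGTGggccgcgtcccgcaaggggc
Nop2 holds its E-box 60 bases before the start, Utp18 20 bases before, and Rrn3 2 of them, 215 and 48 bases before. The called genes Ltv1, Mybbp1a, Tsr1, Utp20, Utp4 and Wdr43 held an E-box in the window but not wholly before the start. Utp18 rose from 40.2, 44.3, 44.2 and 34.4 to 70.9, 69.9, 71.1 and 54.0 CPM (0.71 ± 0.12, adjusted p 0.00116). Rrn3 rose from 57.3, 56.6, 57.6 and 49.7 to 80.7, 78.8, 70.3 and 65.2 CPM (0.42 ± 0.085, adjusted p 0.00488), a call lost without any one of FP libraries 1, 2 and 3 and the 4 PBS libraries (0.37 to 0.47, up to 0.0206). The AP-1 letters TGANTCA were in 4.01% of matched promoters of genes called higher and 4.88% of those called lower, beside 5.06% over genes tested, and the FOXO letters GTAAACA, both searched on both strands, in 2.23% and 4.88%, beside 2.59%. Over all 32851 promoters the E-box, AP-1 and FOXO shares were 7.15%, 7.81% and 3.65%. The limit on matched called genes given above holds here for the shares over all genes called higher or lower. Of the 47 ribosome biogenesis genes called higher, 41 had a promoter (87.2%), above the 80% needed. The 13270 promoters set beside them belong to 10444 of the 16643 genes tested, which is under that 80%. Shares over genes tested therefore describe the matched promoters, and a comparison of this list with them is void too. A match describes the letters of a window and shows no binding.

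**Figure D3:**
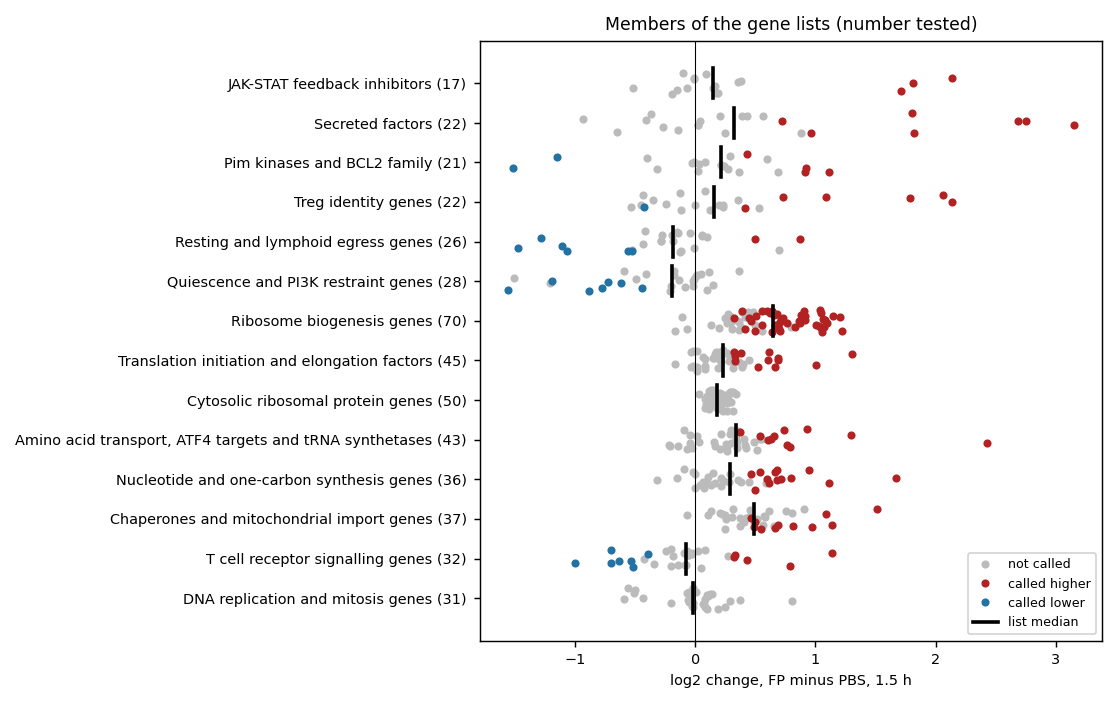
Log2 change, FP minus PBS (horizontal), of every tested member of 14 gene lists (rows, number tested in brackets), with called members in red (higher) or blue (lower), others in grey, and the list median as a black line. Ribosome biogenesis genes are shifted most (median 0.65), ribosomal protein genes lie in a narrow uncalled band, and the quiescence list has called members only on the lower side.

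Of 43 amino acid transport, ATF4 target and tRNA synthetase genes, 11 rose (25.6%) and none fell (median 0.34). Slc7a5, the large neutral amino acid transporter, went from 32.5, 27.1, 31.5 and 33.8 to 92.1, 75.3, 82.5 and 58.0 CPM (1.30 ± 0.13, adjusted p 1.48e-05), and Trib3, an ATF4 target pseudokinase, from 1.94, 2.01, 2.7 and 3.34 to 13.1, 15.3, 16.9 and 8.49 CPM (2.43 ± 0.24, adjusted p 1.5e-05). Aldh18a1, Psat1 and Tars, which serve proline synthesis, serine synthesis and threonine loading onto tRNA, rose by 0.93 ± 0.082, 0.74 ± 0.095 and 0.76 ± 0.073, while the glutamine transporter gene Slc1a5 was not called (0.018 ± 0.089, adjusted p 0.926). In nucleotide and one-carbon synthesis 13 of 36 rose (36.1%) and none fell (median 0.29). Srm, spermidine synthase, was first by p (15.3, 13.6, 12.9 and 15.3 to 50.6, 43.5, 52.5 and 35.6 CPM, 1.67 ± 0.14, adjusted p 3.37e-06), followed by the CTP synthase gene Ctps (1.12 ± 0.10) and by Mthfd1, Cad and Gart (0.67, 0.68 and 0.59). Gcsh, of the glycine cleavage system, rose by 1.99 ± 0.16, from values of 6.65 to 9.18 CPM after PBS to values of 23.1 to 38.0 CPM after FP.

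Of 37 chaperone and mitochondrial import genes 11 rose (29.7%) and none fell (median 0.49). C1qbp, a mitochondrial matrix protein gene, rose from values of 26.9 to 33.1 CPM after PBS to values of 51.4 to 67.0 CPM after FP (0.97 ± 0.11), the import chaperone genes Timm9 and Timm10 by 1.09 ± 0.16 and 1.14 ± 0.17, and Hspa9, the matrix HSP70, by 0.69 ± 0.11. Hsp90ab1 was not called (0.57 ± 0.22, adjusted p 0.104). FP library 2 stood far above the other 3 there, at 1422, 2458, 1472 and 1505 CPM in FP libraries 1 to 4. Of 28 glycolysis and pentose phosphate genes 4 rose (14.3%) and 1 fell (3.57%), with a median of 0.041. Eno1 (157 to 209.9 CPM after PBS to values of 322 to 379 CPM after FP, 0.99 ± 0.11), hexokinase Hk2 (1.23 ± 0.22) and the lactate transporter Slc16a1 (0.87 ± 0.13) rose, and the glucose transporter Slc2a3 fell (-0.77 ± 0.14). Reads of Eno1 may be shared with its processed copies. In cholesterol and fatty acid synthesis 6 of 34 rose (17.6%) and 1 fell (2.94%), with a median of 0.19. Fasn (0.80 ± 0.095), which encodes fatty acid synthase, was higher and Scd2 lower (-0.64 ± 0.12). The Scd2 call was lost without FP library 1, 2 or 3 or PBS library 2 (-0.73 to -0.52, adjusted p up to 0.0136).

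Of 22 G1/S genes 3 rose and 3 fell (13.6% each way, median -0.18). Cdk6 went from 124, 119.8, 133 and 147 to 432, 291, 323 and 263 CPM (1.32 ± 0.13, adjusted p 1.28e-05) and Ccnd2, a D-type cyclin, from 644, 806, 825 and 507 to 1212, 1262, 1122 and 1096 CPM (0.75 ± 0.13, adjusted p 0.0016). Cdk4 rose by 0.39 ± 0.087, a call lost without any FP library or PBS library 1, 2 or 3 (0.33 to 0.45, adjusted p up to 0.0381). E2f2 fell by 1.14 ± 0.20, beside Cdkn1b and Rbl2 named above. None of 31 replication and mitosis genes was called by edgeR and 2 were by DESeq2, with a median of -0.016. Mki67, the proliferation marker, was at 51.7, 45.9, 42.8 and 56.8 CPM after PBS and 48.3, 45.4, 48.9 and 52.3 CPM after FP (-0.018 ± 0.10, adjusted p 0.937), and Mcm6, of the replicative helicase, at 85.0 to 96.6 and 84.5 to 109.9 CPM (0.085 ± 0.091, adjusted p 0.613).

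Of 28 receptor genes for other cytokines 4 rose (14.3%) and 2 fell (7.14%), with a median of -0.015, beside 4.39% of all genes called higher and 2.28% called lower. Il10ra (90.6 to 149 CPM after PBS to values of 176 to 236 CPM after FP, 0.81 ± 0.13), Il18r1 (0.58 ± 0.087), Il4ra (0.60 ± 0.12) and Il10rb (0.38 ± 0.063) rose, and beside Il7r the interferon receptor gene Ifnar1 fell (-0.42 ± 0.088). The calls of Il4ra (lost without FP library 2 or 3 or PBS library 1, 2 or 3) and Ifnar1 (lost without FP library 1, 2 or 3 or any PBS library) gave adjusted p-values up to 0.0143 and 0.0266 (0.54 to 0.73 and -0.50 to -0.38). Of 26 chemokine receptor and integrin genes Itga6 rose (0.80 ± 0.12) and Itga4 (-0.53 ± 0.09) and Ccr9, a gut-homing receptor (-0.99 ± 0.18), fell, shares of 3.85% and 7.69%, with a median of -0.16. In the TNF receptor superfamily 1 of 17 rose, Tnfrsf13b, which encodes TACI (0.69 ± 0.08), and this 5.88% is near the share of all genes. Among 35 interferon-stimulated genes 4 rose (11.4%) and none fell (median 0.082), among them Ifi35 (0.65 ± 0.083) and Isg20 (0.80 ± 0.12). Of 33 chromatin regulators Ezh2, the H3K27 methyltransferase (34.4 to 50.2 CPM after PBS to values of 67.3 to 106 CPM after FP, 0.93 ± 0.15), and Kat2a (0.41 ± 0.069) rose, and Kdm2b (-0.73 ± 0.12) and Chd4 (-0.43 ± 0.077) fell, 6.06% each way. The 8 conventional helper T cell markers tested summed to 245 to 276 CPM in PBS and 269 to 317 CPM in FP libraries, with Igfbp4 the called member. Only 3 of the 8 had a positive log2 change, and the list median was -0.45.

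The largest decreases include genes outside these lists. Ston1, of endocytosis, went from 74.5, 36.9, 38.9 and 56.3 to 9.79, 16.6, 17.2 and 17.1 CPM (-1.77 ± 0.23, adjusted p 0.000186), and Arl5c, a small GTPase gene, from 72.6, 71.9, 72.4 and 77.0 to 18.7, 20.9, 21.5 and 29.4 CPM (-1.70 ± 0.13, adjusted p 1.98e-06). Arl5c was level within each group except FP library 4, which was nearest to PBS. Gramd3, Tent5c and Pde2a, a cyclic nucleotide phosphodiesterase, fell by 1.59 ± 0.24, 1.30 ± 0.13 and 1.27 ± 0.18, and the transcriptional repressor gene Gfi1 by 1.25 ± 0.17. Pex11g fell by 1.27 ± 0.22. Dtx4, of the Deltex family of Notch regulators, fell by 1.33 ± 0.25, a call lost without FP library 1 or 2 or PBS library 1 or 2 (-1.49 to -1.22, adjusted p up to 0.0113). On the higher side Dna2, a nuclease and helicase of DNA replication, rose from values of 3.17 to 4.32 CPM after PBS to values of 10.7 to 20.9 CPM after FP (2.01 ± 0.22), and Tcrg-C4, a T cell receptor gamma constant gene, from values of 1.85 to 2.77 CPM after PBS to values of 6.19 to 10.6 CPM after FP (2.00 ± 0.21). The gamma constant genes share sequence, so reads may fall to a sister gene.

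The 4 FP libraries did not respond evenly. Over the 730 genes called higher, the median log2 level above the PBS mean was 0.776, 0.757, 0.762 and 0.563 in FP libraries 1 to 4, and over the 380 called lower it was -0.778, -0.700, -0.713 and -0.544. FP library 4 was thus nearest to PBS in both sets, which these same libraries chose. Without it 1095 genes were called. The IL-2 libraries, which share the PBS libraries as their control, stood at 0.856 to 0.940 and -0.893 to -0.742 over the same genes, beyond every FP library on the higher side and beyond 3 of the 4 on the lower side at their weakest value.

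Side by side with IL-2, the FP values lay in the same direction for every called gene: none of the 1110 had the opposite sign in IL-2 against PBS, a comparison that called 2360 genes (14.2%, with 8.39% higher and 5.79% lower) and uses the same PBS libraries. Lif reached 27.3 to 62.8 CPM after FP and 63.4 to 86.3 CPM after IL-2, without overlap, and Tcf7 199 to 281 and 156 to 177 CPM, also without overlap. Il2ra reached 1839 to 2144 and 2072 to 2337 CPM and Socs2 104 to 117 and 98.6 to 135 CPM, overlapping. Tested directly, FP against IL-2 gave no gene with edgeR and 1 with DESeq2, with 970 genes at an unadjusted p below 0.05. The difference was -0.81 ± 0.20 for Lif (adjusted p 0.624), 0.45 ± 0.10 for Tcf7 (0.624) and -0.33 ± 0.085 for Nop2 (0.624), and no dose is labelled for IL-2.

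The restimulation table gave a second look at a single FP injection 1.5 h before sorting, after an earlier PBS injection, with its own 3 PBS libraries and library totals of 28965494 to 46108114 reads. In it the library labelled single 1 went against its label. Il2ra was at 639, 569 and 593 CPM in the 3 PBS libraries and at 566, 1785 and 1708 CPM in libraries labelled single 1, 2 and 3. Cish was at 179.5, 140.1 and 177 CPM after PBS and 169.7, 529.6 and 464 CPM in the single libraries. Myb was at 39.4, 30.4 and 31.8 CPM and 28.4, 188 and 162 CPM, in the same order. In these 3 genes the library labelled single 1 stood within or below the PBS range and the other 2 were at least 2-fold above every PBS library. Not every gene put it with PBS. Il2rb was at 757, 698 and 966 CPM in PBS and 1132, 1474 and 1389 CPM in the single libraries, and Fosb at 77.5, 67.6 and 91.2 CPM and 8.56, 5.54 and 5.99 CPM. Over the genes fitted, its deviations from its group mean correlated at 0.719 with those of PBS library 3. With PBS libraries 1 and 2 the correlations were -0.544 and -0.604. PBS library 3 stayed in the fits below that leave out the library labelled single 1. What made this library differ was not tested.

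With all 3 single libraries edgeR called 2 genes there (0.0111% of 17953), Fosb (-3.55 ± 0.21, adjusted p 0.000176) and Fos (75.8, 65.5 and 85.6 CPM in PBS and 18.9, 18.2 and 19.3 CPM in single libraries, adjusted p 0.000998), both lower and both named after their values were seen. In the 1.5 h table neither was called, with Fosb at 0.20 ± 0.71 (adjusted p 0.893). Without the library labelled single 1, 31 genes were called (0.173%), 27 higher (0.15%) and 4 lower (0.0223%). Of the 27, 25 were among the 728 genes called higher at 1.5 h and tested in both tables, which is 92.6% of the restimulation calls and 3.43% of the 1.5 h calls. They include Il2ra (1.54 ± 0.13), Socs2 (1.56 ± 0.12), Cish (1.59 ± 0.19), Lta (1.89 ± 0.21), Myb (2.37 ± 0.23) and Myc (1.83 ± 0.19). The library left out was set apart by its levels of Il2ra, Cish and Myb, genes that rose at 1.5 h. This overlap is therefore no independent support. With all 3 single libraries, 0 genes were called in both tables in either direction. Of the 380 genes called lower at 1.5 h none was among the 4 called lower there. The sign was the same for 94.5% of the 728 and 83.7% of the 380 (93.7% and 80.5% with all 3 libraries), and 50.3% of all genes tested in both tables had a positive log2 change in restimulation. Median log2 changes over these sets were 0.72 and -0.70 at 1.5 h and 0.42 and -0.33 in restimulation without that library, or 0.30 and -0.19 with it. The sets were chosen at 1.5 h, where a value had to be large to be called.

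Lif at 1.58 ± 0.27 (adjusted p 0.0367), Foxp3 at 0.58 ± 0.16 (0.166) and Tcf7 at -0.80 ± 0.22 (0.15) were not called in restimulation without the library labelled single 1. Il7r, which fell at 1.5 h, was at 118, 272 and 107 CPM in the PBS and 259, 191 and 256 CPM in the single libraries (0.51 ± 0.48, adjusted p 0.988, with all 3 single libraries). Without that library the 70 genes of ribosome biogenesis stood at a median of 0.34, and edgeR called none of them. The difference of the FP effects between the tables was called for no gene by edgeR, with all 3 single libraries (1554 genes at an unadjusted p below 0.05, 45 called by DESeq2) or without the first (1309). With all 3 single libraries the difference was -1.99 ± 0.50 for Il7r (adjusted p 0.124) and -2.07 ± 0.41 for Pik3ip1 (0.0445). Pik3ip1 was at 76.1, 80.3 and 91.1 CPM in PBS and 181, 74.2 and 97.5 CPM in single libraries. Its highest value was thus in the library labelled single 1, the others lying just below and just above the PBS range.

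**Figure D4:**
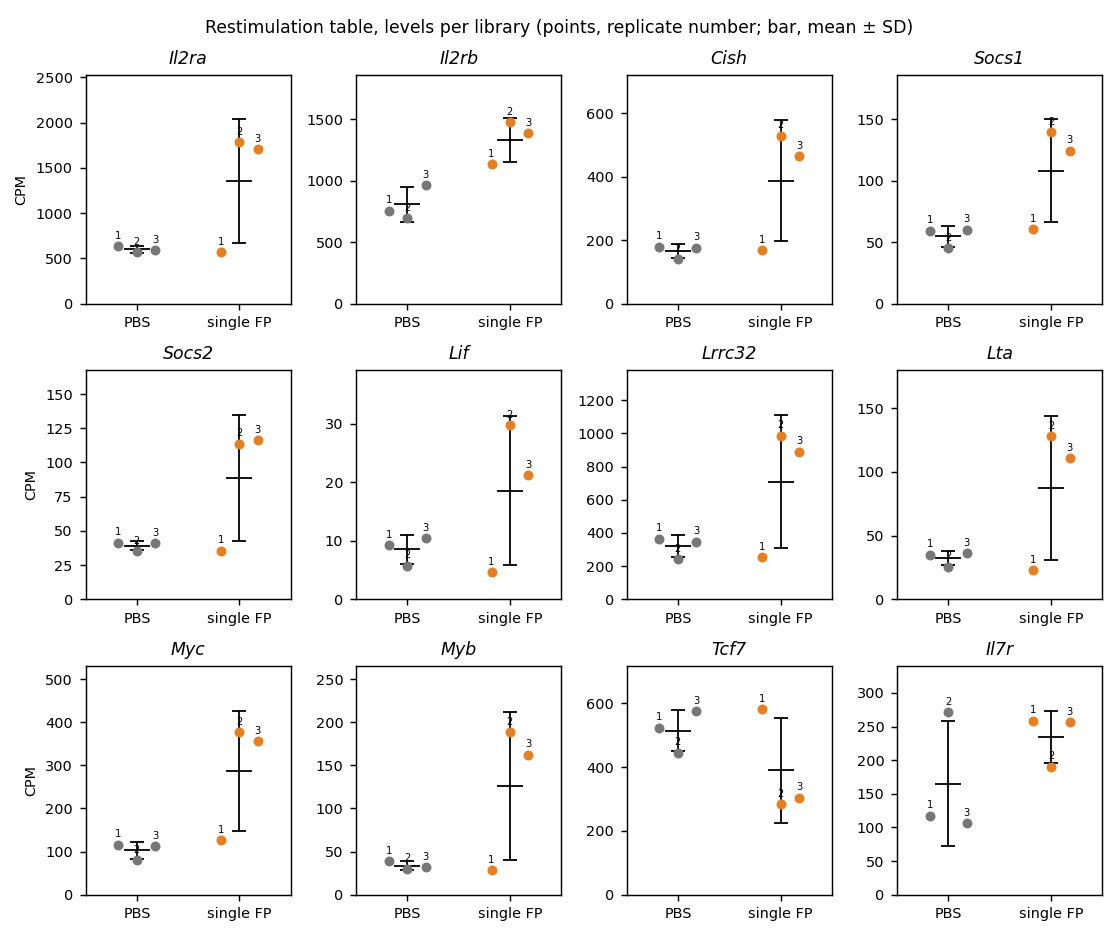
TMM-scaled CPM of 12 genes in the restimulation table (vertical, linear from 0) in the 3 PBS (grey) and 3 single FP (orange) libraries, each point labelled with its replicate number and the bars giving mean ± SD. Libraries labelled single 2 and 3 lie above PBS for Il2ra to Myb and below for Tcf7, and the library labelled single 1 lies above PBS for Il2rb and near or below PBS for Il2ra, Cish, Socs2, Lif, Lta and Myb.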

How the data were processed

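RNA of sorted splenic Tregs was sequenced after ribosomal RNA depletion (KAPA RNA HyperPrep with RiboErase, NextSeq sequencer, per the labels' protocols). The authors deposited raw counts per gene. STAR 2.5.0, featureCounts 1.5.0 and DESeq2, with GRCm38 and GENCODE M13, are named per the submitters' processing notes, and the strand setting of the counting is not given in the sources used here. Per the values, the deposited table keeps genes above 0.5 CPM in at least 3 columns. Of 19093 gene IDs over both tables, 19040 were matched to GENCODE M21 names and GRCm38 coordinates.

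All 12 libraries of the 1.5 h table were fitted together with edgeR 4.0.16 (R 4.3.3, limma 3.58.1): TMM scaling, filterByExpr, glmQLFit and glmQLFTest, two-sided, Benjamini-Hochberg adjustment over all genes tested, called at an adjusted p below 0.01. The restimulation table was fitted alike with its 10 libraries, and the difference of the FP effects over genes of both tables. The SE was taken from the log2 change and the F statistic (absolute change over root F). DESeq2 1.42.0 was an alternative, with other scalings, filters, thresholds, a replicate block and each library left out. Scripts were tested on simulated data. Replicates differed by more than sampling noise (chi-square over degrees of freedom 5.81 to 39.2), so none was merged. Replicate numbers were not taken to pair samples.

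Named genes are the 12 largest increases and 12 largest decreases of non-overlapping called genes averaging 5 CPM or more, leaving out predicted genes, up to 6 called members of each list by p, up to 3 uncalled members by level, members against their list's direction, and a panel. Cd4, Fos, Fosb, Jak3, Ltb, Rrn3 and Utp18 were named outside it, after their values were seen or for the promoter stretches. The members and lists were chosen with earlier results of these data known. The 4 libraries of mice given mIL-2/CD25 in both injections entered the restimulation fit and are not reported. Some genes that this rule names are not reported here.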

Additional observations from a re-analysis of the deposited data

Results flagged for a closer look

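Among the 4 libraries of each group, 23 of 358 gene and group pairs (179 genes) had 1 library whose gap to the next took up more of the group's range than Dixon's limit for 4 samples allows. Chance alone marks about 1 in 20 groups. FP library 4 was the outlying library in 10, each time nearer to the PBS mean than the next FP library. It had the lowest FP level of Il2ra (1839.2 CPM, next 2134.0), Ikzf2 (1021.9, next 1209.6), Myb (165.4, next 277.9), Noc4l (47.7, next 61.1), Ppan (76.8, next 97.8), Utp18 (54 CPM, next 69.9) and Ctps (34.2, next 45.1). It had the highest FP level of Kcnn4 (149.3, next 112.5), Chd4 (575.0, next 501.1) and Dtx1 (147.2, next 94.7).

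PBS library 4 was the outlying library in 8. It was highest for Stat5a (145.7 CPM, next 115.2), Stat5b (384.5, next 282.8), Lrrc32 (330.5, next 234.5), Ppan (52.2, next 43.8), Eef1a1 (5264.3, next 4494.4), Arl5c (77 CPM, next 72.6) and Ighm (470.4, next 355.6), and lowest for Rrn3 (49.7, next 56.7). The rest were Gpr83 in PBS library 1 (278.5 CPM, next 188.0), Itga6 in PBS library 3 (414.2, next 374.0), Treml2 and Hsp90ab1 in FP library 2 (273.3, next 214.3, and 2458.5, next 1504.7) and Ston1 in FP library 1 (9.79, next 16.6).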

How the results depend on the processing

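None of the 1110 genes called for FP against PBS changed sign under the alternatives run. Signs were not compared in this way for the restimulation results or the difference between the tables. For FP against PBS, 1110 called genes became 1688 with DESeq2 and 2209 at an adjusted p below 0.05, while other scalings, filters and the fit on PBS and FP libraries alone gave 864 to 1128. Leaving out 1 library gave 689 to 1099. The 197 called list members ranged from 152 to 206 in those fits. FP against IL-2 gave 0 genes with edgeR, 0 with each library left out, and 1 with DESeq2. The single injection in restimulation gave 2 genes with edgeR (both lower), 143 with DESeq2 (25 higher, 118 lower), and 1 to 31 with 1 library left out. The 31 (27 higher, 4 lower) came without the library labelled single 1, so the balance of higher and lower calls depended on the fit. The difference between the tables gave 0 with edgeR and 45 with DESeq2. DESeq2 changed some list counts by more than 1.5 times: effector Treg genes from 3 to 6, amino acid and tRNA synthetase genes from 11 to 17, cholesterol and fatty acid genes from 7 to 11, chaperones from 11 to 17, G1/S genes from 6 to 10, ion channels from 4 to 7, chemokine receptors and integrins from 3 to 5, the TNF receptor superfamily from 1 to 2, replication and mitosis genes from 0 to 2 and CD8 T and NK cell markers from 0 to 1. Without 1 library, chaperones fell to 7, 6 and 7 called members (FP library 2 or 3, PBS library 1), cholesterol and fatty acid genes to 3 or 4 (any but FP library 4), T cell receptor genes from 12 to 6 or 7 (FP library 1 or 2), translation factors from 12 to 7 (PBS library 1), interferon-stimulated genes from 4 to 2 (FP library 2 or 3, PBS library 3), Myc network genes from 6 to 3 (FP library 1 or 3, PBS library 1 or 4), immediate early genes from 5 to 3 (PBS library 1) and effector Treg genes from 3 to 1 (FP library 1 or 3, PBS library 1), while the TNF receptor superfamily went from 1 to 4 without PBS library 4. The causes were not tested beyond what fewer libraries or a looser threshold imply by construction.

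The labels do not say what a replicate number shares. Deviations of same-numbered FP and PBS libraries correlated at 0.128, 0.253, -0.215 and 0.144, and those of FP and IL-2 libraries at -0.25, 0.182, 0.258 and 0.441, so not every pair exceeded 0.1. FP library 2 correlated best with the PBS library of its own number and the other 3 with another. With the replicate number as a block, 1066 genes were called for FP against PBS (693 higher, 373 lower), 0 for FP against IL-2 and 0 for the single injection in restimulation. Mxi1, Mlxip and Spry4 lost their calls under the block. The fit on PBS and FP libraries alone ended the calls of 12 of the 179 named genes, among them Stat5b, Tnfsf11 and Ighm. Of 138 called named genes, 113 were called with each of the 8 libraries left out in turn. Depth limits low genes: Spry4, Kcnj15 and Hbegf stand at a few CPM or less after PBS.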

Other observations

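Some genes outside the lists had large changes after FP and were chosen after their values were seen. Xbp1, a transcription factor of the unfolded protein response, was at 66.0, 66.5, 63.7 and 74.9 CPM in PBS and 197, 238, 233 and 162 CPM in FP libraries (log2 change 1.61 ± 0.13, SE, edgeR adjusted p 3.6e-06). Pdia4, a folding enzyme of the endoplasmic reticulum, was at 86.4, 101, 98.8 and 107 and 226, 253, 250.3 and 196 CPM (1.24 ± 0.10). In both genes the groups were apart. Rragd, a Rag GTPase of amino acid sensing by mTORC1, was at 25.2, 23.2, 23.4 and 31.2 and 86.0, 125, 118 and 71.1 CPM (1.96 ± 0.18), and it was among the genes called in restimulation without the library labelled single 1 (1.99 ± 0.12).

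Map3k8, a kinase of the MAP kinase cascade, was at 62.0, 53.3, 51.9 and 58.5 CPM in PBS and 241, 188, 174 and 174 CPM in FP libraries (1.78 ± 0.12). Mir17hg, the host gene of a microRNA cluster, was at 27.9, 27.3, 31.9 and 16.8 and 73.1, 68.8, 54.7 and 48.3 CPM (1.24 ± 0.17), and Enah, an actin regulator, at 1.32, 0.618, 1.62 and 0.91 and 10.4, 6.61, 12.1 and 5.32 CPM (2.93 ± 0.32). Dtx1, of the Deltex family, fell from 206, 265, 281 and 210.1 to 94.5, 89.3, 94.7 and 147 CPM (-1.18 ± 0.16). Tcrg-C1 and Tcrg-C2 rose with Tcrg-C4, by 2.13 ± 0.20 and 1.83 ± 0.17, and reads may be shared between these constant genes.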
